A study of Mus musculus with 45 samples.

Results

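The genes described here are 42 type I interferon-stimulated genes of the mouse, the transcripts that a cell raises when interferon alpha or beta binds its receptor. They were picked by symbol, as known targets of the pathway, from 47729 genes measured in CT26 tumours of mice given antibodies against PD-1, against TIGIT or against both. All 42 were found in both experiments of the study and all 42 passed the minimum on low values, so every member is accounted for. In the experiment called T2106, 3 members changed under serplulimab with HLX53 at 10 mg/kg: Epsti1 and Ifi27 rose and Ly6e fell. These 3 are 7.14% of the members, where 44% of all genes tested were called, a share that itself moved with single tumours. All 3 calls were lost once adipocyte marker level was taken into the fit. That level was far higher in all 3 treated tumours than in vehicle tumours, so such a fit separates it poorly from treatment. In the experiment called T2215 no member passed the test in any comparison. Under pembrolizumab with tiragolumab 41 of 42 members had a value below vehicle there, where 43.1% of all genes had a value above it. The members moved together from tumour to tumour, and without the first vehicle tumour their median difference went from −0.82 to −0.46.

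Type I interferons signal through the receptor chains IFNAR1 and IFNAR2 and the kinases JAK1 and TYK2, which phosphorylate STAT2. With IRF9, STAT2 takes part in ISGF3, a transcription factor that binds interferon-stimulated response elements in the promoters of its target genes. In tumours the targets are read as a sign of interferon made by dendritic cells and other cells that sense nucleic acids, and many of them also respond to interferon gamma from T cells and natural killer cells.

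The members fall into 8 roles. IFIT proteins, which bind foreign RNA, gave 4 members (Ifit1, Ifit2, Ifit3 and Ifit3b). ISG15, a ubiquitin-like protein joined to other proteins, came with its protease Usp18, the ligase Herc6 and the ubiquitin ligase Trim25. The oligoadenylate synthetase family, which includes enzymes that make the signal that switches on RNase L, gave 6 members. Other antiviral effectors gave 11, among them Mx1 and Mx2 of the Mx GTPase family, Rsad2 (viperin), Bst2 (tetherin) and Eif2ak2 (the kinase PKR). Zbp1, a sensor of Z-form nucleic acids that can start cell death, was another. Mx2 is annotated as a polymorphic pseudogene, and every other member as protein coding. Irf7, Irf9 and Stat2 are transcription factors, and Ddx58 (RIG-I), Ifih1 (MDA5) and Dhx58 (LGP2) sense viral RNA. Parp9, Parp14 and Dtx3l are ADP-ribosyltransferases and their partner ubiquitin ligase. The remaining 8 are Ifi27, Ifi27l2a, Ifi35, Xaf1, Ly6e, Phf11d, Lgals3bp and Epsti1.

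The response element has the core GAAANNGAAA, or TTTCNNTTTC on the other strand, and this core was searched for on both strands in the 250 bases before each gene's start in RefSeq's promoter table (build GRCm38.p6). It was found in 11 of the 30 members that have an entry (36.7%), against 936 of 27025 genes in the whole table (3.46%). The 11 were Isg15, Ifit1, Ifit3, Ifit3b, Rsad2, Oas1a, Oas1g, Oas3, Trim30a, Bst2 and Stat2. No other motif was searched for. The match is a description of these letters and no evidence of binding in these tumours.

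The first 3 promoters shown are those of Isg15, Ifit1 and Rsad2, whose tumour values are given below. The other 4 belong to the pairs of near-identical genes Ifit3 and Ifit3b, and Oas1a and Oas1g. Each line gives the 200 bases before the start, 5′ to 3′ on the gene's strand, and capitals mark the core.
Isg15: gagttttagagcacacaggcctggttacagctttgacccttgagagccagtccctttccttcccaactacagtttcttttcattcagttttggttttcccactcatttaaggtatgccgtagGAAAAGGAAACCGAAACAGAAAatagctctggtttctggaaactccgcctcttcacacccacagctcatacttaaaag
Ifit1: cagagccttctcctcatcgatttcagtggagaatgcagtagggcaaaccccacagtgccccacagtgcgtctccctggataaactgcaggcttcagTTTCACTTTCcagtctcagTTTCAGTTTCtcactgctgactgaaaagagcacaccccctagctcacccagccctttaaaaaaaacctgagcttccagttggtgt
Rsad2: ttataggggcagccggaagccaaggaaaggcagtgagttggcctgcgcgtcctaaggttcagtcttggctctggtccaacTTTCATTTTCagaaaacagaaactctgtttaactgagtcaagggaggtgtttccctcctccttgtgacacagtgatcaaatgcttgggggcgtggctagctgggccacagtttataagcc
Ifit3: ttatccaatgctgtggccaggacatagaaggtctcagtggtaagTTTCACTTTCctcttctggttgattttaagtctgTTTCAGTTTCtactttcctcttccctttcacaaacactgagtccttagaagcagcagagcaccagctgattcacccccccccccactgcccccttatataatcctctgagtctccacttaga
Ifit3b: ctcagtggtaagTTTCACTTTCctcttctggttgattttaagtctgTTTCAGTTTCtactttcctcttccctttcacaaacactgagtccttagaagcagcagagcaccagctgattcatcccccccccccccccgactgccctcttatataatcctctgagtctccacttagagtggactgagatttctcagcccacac
Oas1a: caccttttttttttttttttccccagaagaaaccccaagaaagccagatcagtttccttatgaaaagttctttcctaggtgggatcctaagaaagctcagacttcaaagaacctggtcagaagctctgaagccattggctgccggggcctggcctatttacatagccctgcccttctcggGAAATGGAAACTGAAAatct
Oas1g: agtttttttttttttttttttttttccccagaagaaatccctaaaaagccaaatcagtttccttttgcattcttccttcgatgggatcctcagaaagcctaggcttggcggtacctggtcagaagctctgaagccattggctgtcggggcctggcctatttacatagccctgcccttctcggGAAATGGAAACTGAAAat

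The Isg15 promoter (chr4:156200819-156201018, minus strand) held 3 overlapping matches that began 78, 72 and 66 bases before the start. The Ifit1 promoter (chr19:34640689-34640888, plus strand) held 2, which began 104 and 85 bases before the start, and that of Rsad2 (chr12:26456453-26456652, minus strand) held 1, which began 120 bases before it. The cores of Ifit3 (chr19:34583329-34583528, plus strand) began 156 and 122 bases before its start, and those of Ifit3b (chr19:34607757-34607956, plus strand) 188 and 154. Those of Oas1a (chr5:120907526-120907725, minus strand) began 20 and 14 bases before its start, and those of Oas1g (chr5:120887614-120887813, minus strand) 18 and 12. Ifit3 and Ifit3b matched at 98% of aligned transcript bases, and Oas1a and Oas1g at 97.5%, so how reads were shared within each of these pairs is uncertain. Mx1 and Mx2 matched at 82.0% and Oasl1 and Oasl2 at 67.6%. Parp9 and Dtx3l overlap on opposite strands, as do Irf7 and Phrf1, and Irf9 overlaps Rnf31 on the same strand. The labels do not say whether counting used strand, so these values may share reads too.

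All mice, vehicle animals included, were BALB/c animals in which human TIGIT and human PD-1 had both been knocked in, and all bore subcutaneous tumours of CT26, an undifferentiated colon carcinoma line. Antibodies were injected into the abdomen from day 8, when tumours measured 90 to 100 mm3, and bulk tumour RNA was sequenced. T2106 had 18 tumours in 6 groups: serplulimab, HLX53, serplulimab with HLX53 at 5 mg/kg, serplulimab with HLX53 at 10 mg/kg, pembrolizumab with tiragolumab, and saline vehicle. T2215 had 27 tumours in 9 groups: serplulimab, pembrolizumab, HLX53, tiragolumab, each of the 4 pairs of a PD-1 and a TIGIT antibody, and saline vehicle. Every group had 3 tumours, and every antibody was given at 10 mg/kg unless another dose is named. Serplulimab and pembrolizumab bind PD-1, an inhibitory receptor of T cells, and HLX53 and tiragolumab bind TIGIT, an inhibitory receptor that natural killer cells carry as well.

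The deposited values were log2 FPKM, a read density per length of transcript scaled to the library, so levels below are FPKM and may be compared between genes. Read depth is unknown, as the tables hold no counts; between 12918 and 14448 genes per tumour reached 0.5 FPKM. The mesenchymal gene Vim had a median of 2517 FPKM in T2106 and 2733 FPKM in T2215, and the keratin gene Krt20 had medians of 83.5 and 84.2 FPKM. The gut epithelial genes Vil1 and Lgr5 stayed under 0.5 FPKM in every tumour, and the medians of Cdx2 were 0.127 and 0.177 FPKM. The medians of Epcam were 0.45 and 1.12 FPKM, with highest values of 10.2 and 11 FPKM. Other epithelial genes were higher: Krt18 reached 0.5 FPKM in every tumour, with medians of 12.8 and 15.5 FPKM. Medians were 1.6 and 5.35 FPKM for Krt8, and 0.614 and 0.733 FPKM for Cdh1. These marker genes were picked after the values were seen. Differences are log2(FPKM + 0.5), the first-named group minus the other, with the standard error of limma's model; this scale understates changes of low genes. A gene passed when its p-value, adjusted over all genes tested by the Benjamini-Hochberg method, was under 0.05. The p-values rest on the spread between samples within groups, pooled over all groups of an experiment and drawn towards that of other genes. This spread may be partly technical, since nothing in the labels ties samples to animals.

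The members differed widely in level. Ly6e, a cell surface protein, was the most abundant at a mean of 1662 FPKM in T2106, followed by Bst2 at 629 FPKM and Ifi27l2a at 510 FPKM. Zbp1 averaged 202 FPKM there and Isg15 averaged 130 FPKM. Mx2 was the lowest at 4.89 FPKM, with Epsti1 at 7.23 FPKM and Mx1 at 8.34 FPKM above it. The same 3 genes led in T2215, at 533 FPKM for Bst2 and 454 FPKM for Ifi27l2a, and Mx2 was again lowest at 4.08 FPKM. Fold range over tumours was widest for Rsad2 in T2106, where the highest tumour had 20.9 times the lowest, and for Zbp1 in T2215, where it had 14 times the lowest.

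**Figure D1:**
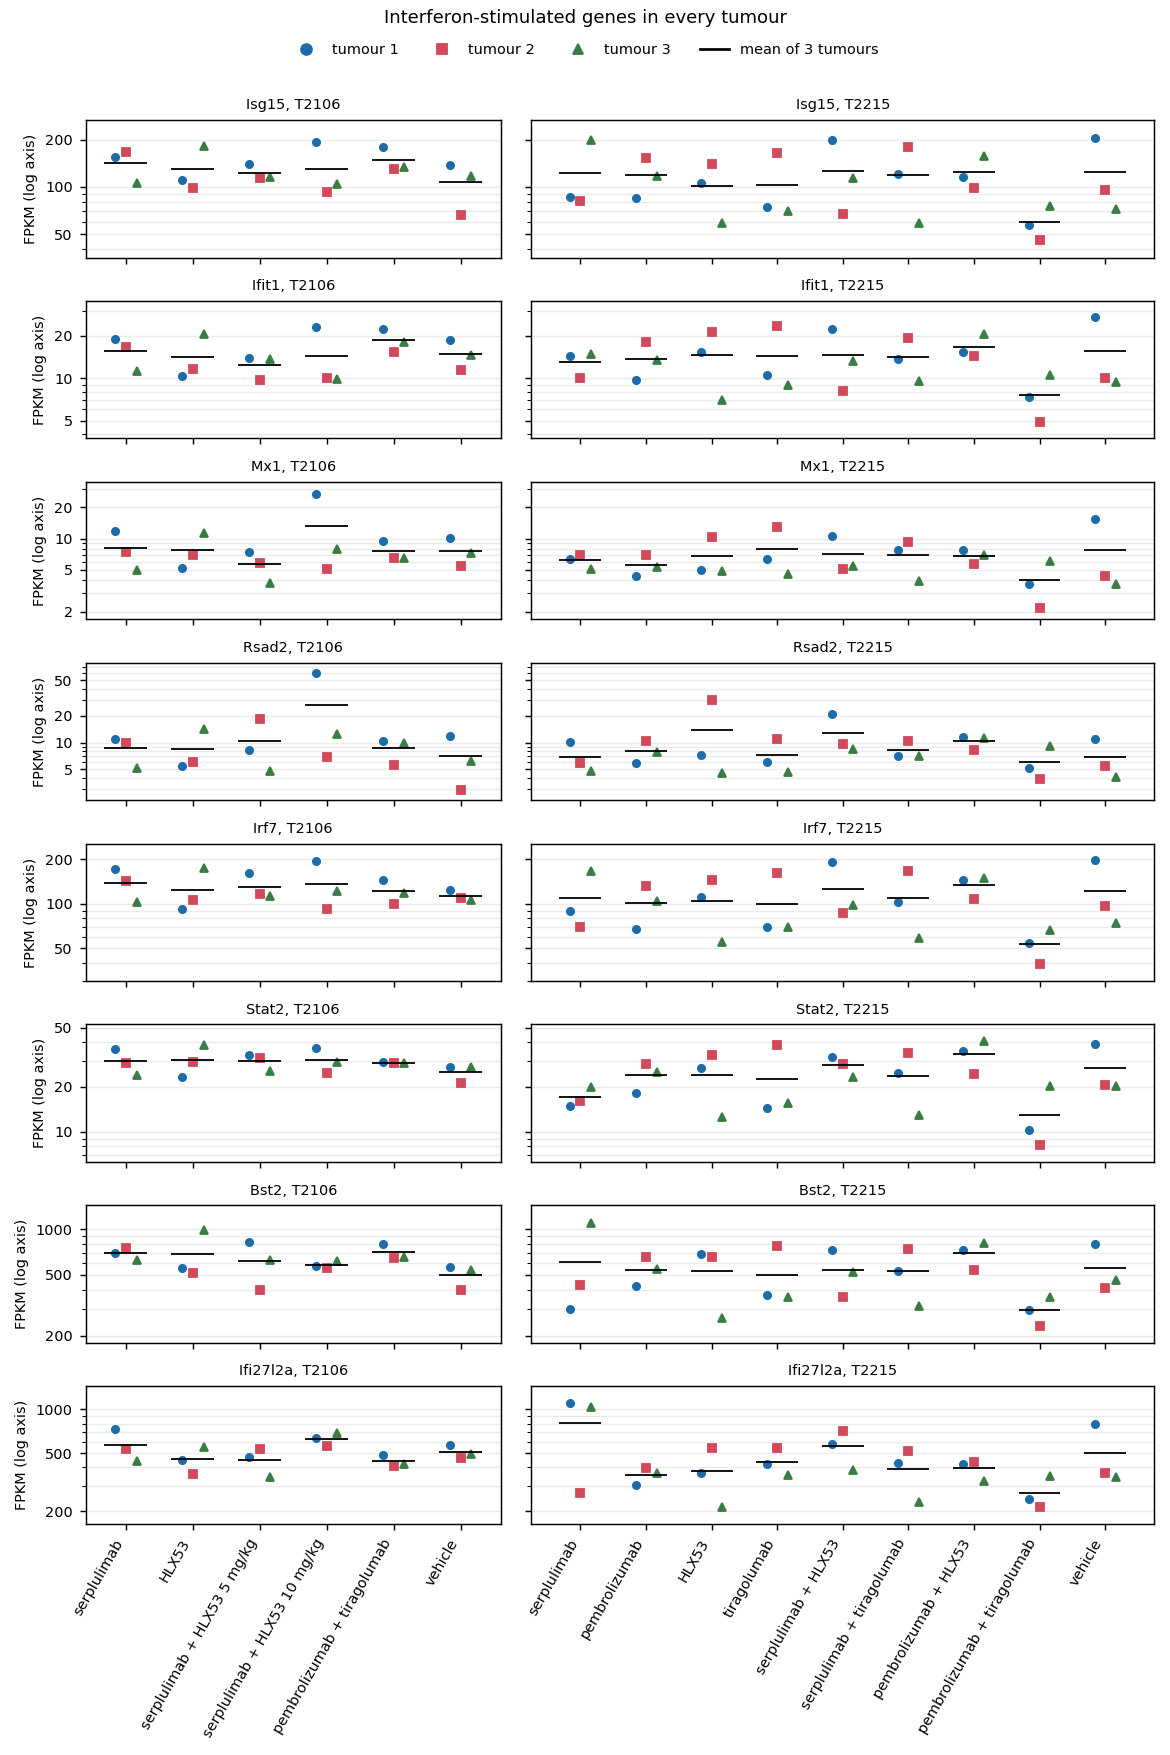
FPKM of 8 members (log axis) in every tumour of T2106 (left) and T2215 (right), with 1 symbol per tumour and a bar at the mean of 3 tumours. Tumours of 1 group often differ as much as the groups do, and the 3 T2215 tumours given pembrolizumab with tiragolumab sit low for Isg15, at 46.1 to 75.4 FPKM.

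Tumours of 1 group differed in these genes. The median residual SD of the members, on the log2 scale, was 0.34 in T2106 against 0.274 over all genes tested, and 0.551 in T2215 against 0.267. The median share of variance that lay between groups was 28.7% for members and 51.1% for all genes in T2106, and 34% and 34.7% in T2215. The members also moved together from tumour to tumour. Over the 861 pairs of members the median Pearson r was 0.556 across the 18 tumours of T2106 and 0.799 across the 27 of T2215; the pairs share tumours, so these values are a description. After group means were taken out the medians were 0.664 and 0.814. In T2215 the values closest to those of Isg15 were of Irf7 (r = 0.965), Usp18 (r = 0.962), Ifit3 (r = 0.956), Phf11d (r = 0.955) and Oas1a (r = 0.953). Ifi27 (r = 0.24) and Trim25 (r = 0.461) were the least like it in that experiment. In T2106 Oas1a (r = 0.899) and Ifi35 (r = 0.898) were closest, while Ly6e (r = −0.127), Lgals3bp (r = 0.0344) and Epsti1 (r = 0.116) were least like Isg15. Of the 3 members that changed in T2106, Epsti1 and Ly6e were thus among those that followed Isg15 least.

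Single tumours set many of the extremes. In T2106 the first tumour given serplulimab with HLX53 at 10 mg/kg held the highest value of 21 of the 42 members, and the second vehicle tumour the lowest value of 16. In T2215 the first vehicle tumour held the highest value of 21 members, and the second tumour given pembrolizumab with tiragolumab the lowest value of 35.

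**Figure D2:**
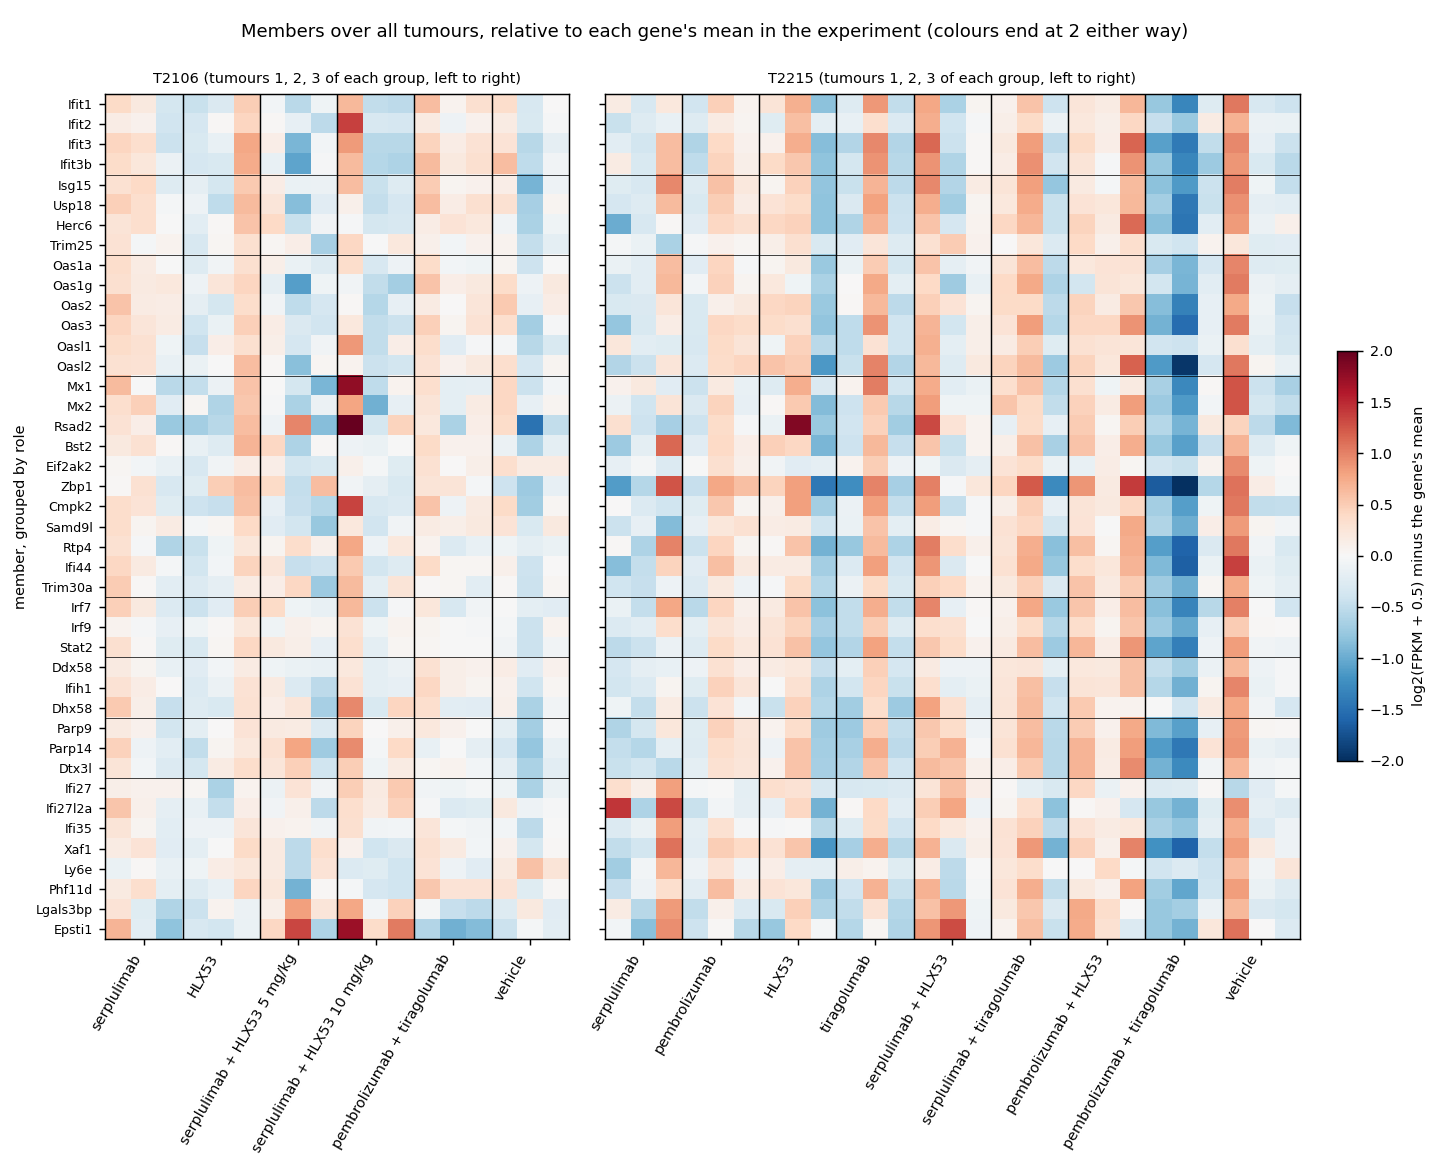
Each of the 42 members (rows, grouped by role) in each tumour (columns, tumours 1, 2 and 3 of each group from left to right), as log2(FPKM + 0.5) minus the gene's mean in its experiment; red is higher and blue is lower. Whole columns share a colour, such as the first vehicle tumour of T2215 in red and the second pembrolizumab with tiragolumab tumour of T2215 in blue.

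In T2106 the single antibodies and the lower dose left no member past the test. Isg15 had 156, 166 and 106 FPKM with serplulimab, 111, 98.4 and 181 FPKM with HLX53, and 140.0, 115 and 116 FPKM with serplulimab and HLX53 at 5 mg/kg, against 139, 66.1 and 117 FPKM with vehicle. Each of these groups overlapped vehicle. With serplulimab 0 members were called by limma and 0 had an unadjusted p under 0.05, where 0% of the 15070 genes tested were called and 8.49% had such a p. Their median difference was 0.23, with 39 of 42 above 0, against −0.02 over all genes, of which 46.6% were above 0. With HLX53 0 members were called and 1, Zbp1, had an unadjusted p under 0.05, against 0.00664% and 3.86% of all genes; the median was 0.11 and 31 members were above 0. With serplulimab and HLX53 at 5 mg/kg 0 members were called and 5 had an unadjusted p under 0.05, 1 higher and 4 lower, against 1.02% and 28.7% of all genes. The median there was 0.03 and 22 members were above 0. These medians rested on single tumours: without the second vehicle tumour they were 0.07 with serplulimab, −0.04 with HLX53 and −0.12 with serplulimab and HLX53 at 5 mg/kg. Without the third HLX53 tumour the median of that group was −0.09, without the first tumour of the lower dose that of its group was −0.07, and without the first serplulimab tumour that of serplulimab was 0.09.

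Serplulimab with HLX53 at 10 mg/kg gave 3 called members of 42 (7.14%), against 44% of all genes tested, of which 23.4% were called higher and 20.6% lower. That share moved with single tumours too: 6633 of 15070 genes were called, and 351 to 7345 on leaving out 1 tumour. At an unadjusted p under 0.05 there were 7 members, 5 higher and 2 lower, against 56% of all genes. Ifi27, a small interferon-induced membrane protein (chromosome 12, 103434211 to 103440239, GRCm38), had 161, 129 and 165 FPKM in these tumours, against 107, 73.6 and 104 FPKM in vehicle tumours. The groups did not overlap, and the means were 152.0 ± 19.7 and 95.0 ± 18.6 FPKM (SD, n = 3 each). Ifi27 rose by 0.69 ± 0.19 (SE; limma, adjusted p = 0.0152).

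Epsti1 (chromosome 14, 77904239 to 78002657), named for its induction in epithelial cells beside stroma, had 21.3, 8.03 and 13.2 FPKM with serplulimab and HLX53 at 10 mg/kg, against 4.45, 5.93 and 5.25 FPKM with vehicle. All 3 treated tumours lay above all 3 vehicle tumours, at 14.2 ± 6.71 and 5.21 ± 0.744 FPKM (SD, n = 3 each). Epsti1 rose by 1.27 ± 0.44 (limma, adjusted p = 0.0339). Ly6e (chromosome 15, 74955051 to 74959905), a lipid-anchored surface protein, had 1345, 1378 and 1237 FPKM with the antibodies, against 1845, 2458 and 1946 FPKM with vehicle, again without overlap. Ly6e fell by 0.65 ± 0.21 on the log2 scale (limma, adjusted p = 0.0249). All 3 calls were lost without the second vehicle tumour and without treated tumour 1 or 3, while 10 members were called without treated tumour 2. The call of Epsti1 was also lost without vehicle tumour 1 (limma, adjusted p = 0.0901) and without vehicle tumour 3 (adjusted p = 0.0683).

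The core members of the pathway overlapped vehicle in the same comparison. Isg15 had 194, 92.4 and 105 FPKM with serplulimab and HLX53 at 10 mg/kg, against 139, 66.1 and 117 FPKM with vehicle. Rsad2 had 61.0, 6.96 and 12.4 FPKM against 11.8, 2.92 and 6.27 FPKM with vehicle, a difference of 1.46 ± 0.70 that did not pass, with 1 treated tumour far above the others (limma, adjusted p = 0.0952). Mx1 likewise had 26.9 FPKM in the first treated tumour and 5.12 and 7.91 FPKM in the others, against 10.2, 5.41 and 7.19 FPKM with vehicle. Irf7 had 196, 91.7 and 122 FPKM under treatment and 124, 109 and 106 FPKM with vehicle. Stat2 had 36.7, 25 and 29.5 FPKM with the antibodies and 27.3, 21.2 and 27.4 FPKM with vehicle. The first treated tumour was the highest of the 6 for Isg15, Rsad2, Mx1, Irf7 and Stat2. Ifit1 had 22.9, 10.1 and 9.82 FPKM against 18.6, 11.4 and 14.5 FPKM with vehicle. Bst2 had 571, 559 and 614 FPKM against 565, 400 and 539 FPKM with vehicle, and Ifi27l2a had 633, 560 and 690 FPKM against 571, 467 and 494 FPKM. For each of these 8 genes the groups overlapped and the test was not passed.

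By role, the medians in this comparison were 0.54 for Parp9, Parp14 and Dtx3l, 0.28 for the 8 remaining genes that include the 3 called, 0.25 for the antiviral effectors and 0.23 for the transcription factors. ISG15 and its conjugation gave 0.15 and the RNA sensors 0.06, while the IFIT proteins gave −0.04 and the oligoadenylate synthetases −0.19. The 42 members had a median of 0.23, with 28 above 0, against −0.04 over all genes. The direction of that median rested on 1 tumour: it was −0.09 without the first treated tumour, and 0.06 without the second vehicle tumour. Parp14 (0.85, adjusted p = 0.0542), Parp9 (0.49, adjusted p = 0.0591) and Dtx3l (0.54, adjusted p = 0.0757) came closest to the threshold without passing (limma); these 3 were named after their values were seen.

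Pembrolizumab with tiragolumab in T2106 gave 0 called members (limma) and 1, Zbp1, with an unadjusted p under 0.05, where 0% of all genes were called and 5.14% had such a p. Isg15 had 179, 131 and 134 FPKM with this pair, against 139, 66.1 and 117 FPKM with vehicle, and the groups overlapped. The members' median was 0.22 with 35 of 42 above 0, and over all genes it was −0.06 with 39.1% above 0. Without the second vehicle tumour the median was 0.06, and without the first tumour of the pair it was 0.14. ISG15 and its conjugation had the highest role median, 0.47, followed by the PARP group at 0.36 and the IFIT proteins at 0.35.

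Raising HLX53 to 10 mg/kg from 5 mg/kg beside serplulimab gave 0 called members (limma) and 1 with an unadjusted p under 0.05, against 0.139% and 11% of all genes. That member was Ifi27l2a, a relative of Ifi27, which had 633, 560 and 690 FPKM at 10 mg/kg and 475, 538 and 346 FPKM at 5 mg/kg, without overlap (0.49 ± 0.21; limma, adjusted p = 0.43). Set directly against pembrolizumab with tiragolumab, serplulimab with HLX53 at 10 mg/kg gave 3 called members, 2 higher and 1 lower, where 42.6% of all genes were called, 25.8% higher and 16.8% lower. At an unadjusted p under 0.05 there were 6 members, 4 higher and 2 lower, against 54.7% of all genes. Epsti1 had 21.3, 8.03 and 13.2 FPKM against 3.94, 2.93 and 3.13 FPKM with pembrolizumab and tiragolumab, and was higher by 1.84 ± 0.44 (limma, adjusted p = 0.00963). Lgals3bp, a secreted glycoprotein that binds galectin-3, averaged 213.5 ± 59.4 FPKM against 125.9 ± 23.9 FPKM (0.74 ± 0.26; limma, adjusted p = 0.0378), with overlapping tumours. Oas1g averaged 21.3 ± 4.93 FPKM against 34.9 ± 6.05 FPKM (SD, n = 3 each), a difference of −0.71 ± 0.24 (limma, adjusted p = 0.0339), with the read sharing between Oas1a and Oas1g noted above. Lgals3bp and Oas1g lie outside the rule for genes given per tumour and were named after their values were seen. Only 1 member was called without tumour 2 or 3 of pembrolizumab with tiragolumab and without tumour 1 or 3 of serplulimab with HLX53.

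Markers of other tissue moved with these T2106 results. All 6 adipocyte markers tested were called higher under serplulimab with HLX53 at 10 mg/kg, with summed levels of 1551, 1569 and 1765 FPKM, against 45.9, 333.0 and 96.1 FPKM in vehicle tumours and 44.3, 57.0 and 51.7 FPKM under pembrolizumab with tiragolumab. All 6 markers reached 0.5 FPKM in each of the treated tumours, against 2, 5 and 4 of 6 in vehicle tumours. Over all genes tested 23.4% were called higher in this comparison with vehicle and 20.6% lower. The 6 macrophage markers were also all called higher (median 1.64), as were 5 of 6 neutrophil markers (3.74), all 5 of fibroblasts (1.75), all 4 of B cells (1.66), 3 of 4 of endothelium (1.82) and 2 of 3 of skin keratinocytes (2.57). Of 6 markers of plasmacytoid dendritic cells, which make much of the body's type I interferon, 3 were called higher (1.69), and of 8 T cell markers 2 (1.45); the 4 markers of dividing cells were all called lower (median −0.97). The summed T cell markers were 156, 62.6 and 122 FPKM under serplulimab with HLX53 at 10 mg/kg, against 11.1, 6.11 and 9.21 FPKM under pembrolizumab with tiragolumab. Between these 2 pairs all 8 were called, against 42.6% of all genes tested. With the adipocyte score as a covariate no member was called in either comparison. Adipocyte marker levels set the treated tumours apart from both other groups, so such a fit separates them poorly from treatment and cannot say what the lost calls rest on. Against vehicle Ifi27 was then 0.67 (limma, adjusted p = 0.507), close to its 0.69 without the covariate, Ly6e was −0.37 (adjusted p = 0.786) and Epsti1 was −0.09 (adjusted p = 0.972). In bulk tumours fewer cells of a type and less RNA per cell cannot be told apart, and the part of these cells in the 3 calls was not tested.

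**Figure D3:**
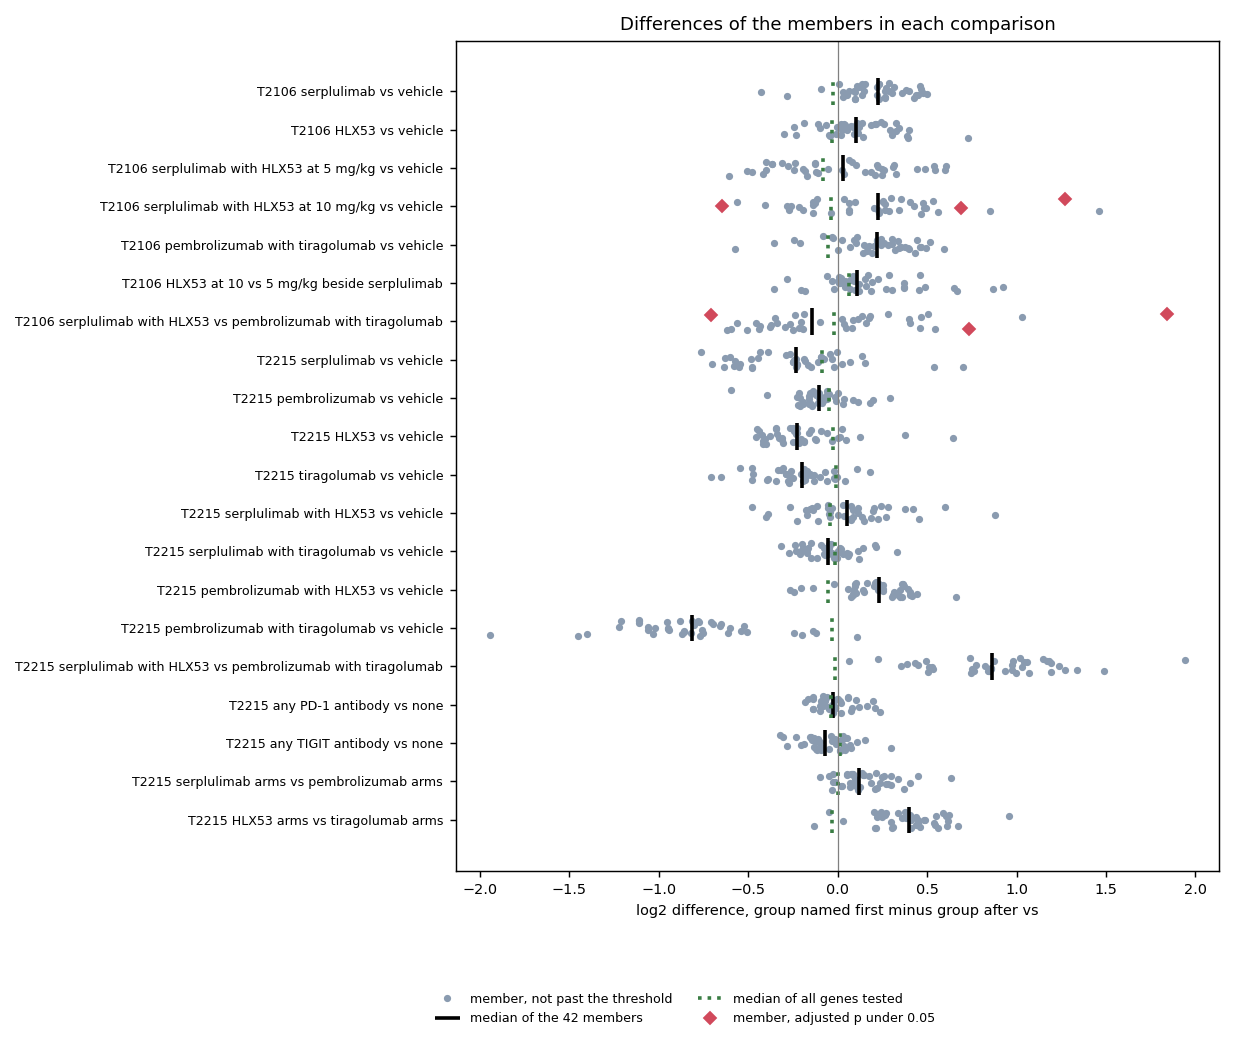
Log2 difference of each of the 42 members (points) in each of the 20 comparisons, first-named group minus the other, with a black bar at the median of the members, a green dotted bar at the median of all genes tested and red diamonds for members that passed the test. The T2215 comparison of pembrolizumab with tiragolumab against vehicle lies lowest, at a member median of −0.82, and serplulimab with HLX53 against that pair lies highest, at 0.87.

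In T2215 no member passed the test in any of the 13 comparisons made there. The 4 single antibodies gave members' medians of −0.23 (serplulimab), −0.11 (pembrolizumab), −0.23 (HLX53) and −0.20 (tiragolumab), with 6, 8, 7 and 3 of 42 above 0. The medians over all genes were −0.09, −0.05, −0.03 and −0.01. All 4 directions rested on the first vehicle tumour, without which the members' medians were 0.13 (serplulimab), 0.23 (pembrolizumab), 0.09 (HLX53) and 0.10 (tiragolumab). That of pembrolizumab was also above 0 without its own first tumour (0.08), and that of HLX53 without its tumour 3 (0.12). With serplulimab 0 members were called (limma) and 3 had an unadjusted p under 0.05, against 0% and 12.4% of 14914 genes. Ifi27 was the 1 of these that was higher, at 140.0, 119.5 and 196 FPKM with serplulimab against 75.4, 94.0 and 107 FPKM with vehicle (0.70 ± 0.19; limma, adjusted p = 0.387), without overlap. With pembrolizumab, HLX53 and tiragolumab 0 members were called (limma) and 0 had an unadjusted p under 0.05, where 0% of all genes were called in each and 1.01%, 1.35% and 0.939% had such a p.

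The tumours of 1 group spread widely for Isg15 in T2215. It had 85.7, 81.1 and 199 FPKM with serplulimab, 84.9, 152 and 118 FPKM with pembrolizumab, 106, 140.0 and 58.7 FPKM with HLX53 and 74.2, 164 and 70.5 FPKM with tiragolumab, against 206, 95.9 and 72.6 FPKM with vehicle. The first vehicle tumour was the highest of all 27. Serplulimab with HLX53 gave 198, 67.5 and 114 FPKM, serplulimab with tiragolumab 121, 179 and 59.1 FPKM, and pembrolizumab with HLX53 115, 98.6 and 158 FPKM. All 7 of these groups overlapped vehicle, and pembrolizumab with tiragolumab, described below, had the lowest mean.

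Serplulimab with HLX53 gave 0 called members (limma) and 2 with an unadjusted p under 0.05, against 0% and 18.3% of all genes, and a median of 0.05 with 24 of 42 above 0. Ifi27 had 132, 168 and 121 FPKM in this group, all above the 3 vehicle tumours (0.60 ± 0.19; limma, adjusted p = 0.239). Epsti1 had 11.5, 15.7 and 5.60 FPKM against 13.4, 6.06 and 4.92 FPKM with vehicle, and overlapped it. Serplulimab with tiragolumab gave 0 called members (limma), 0 with an unadjusted p under 0.05 (0% and 1.01% of all genes), and a median of −0.05 with 13 above 0. Pembrolizumab with HLX53 gave 0 called members (limma), 0 with an unadjusted p under 0.05 (0.00671% and 6.43% of all genes), and a median of 0.23 with 37 above 0. Without the first vehicle tumour the medians were 0.43 for serplulimab with HLX53, 0.26 for serplulimab with tiragolumab and 0.57 for pembrolizumab with HLX53. Without vehicle tumour 3 they were −0.19 for serplulimab with HLX53, −0.26 for serplulimab with tiragolumab and 0.01 for pembrolizumab with HLX53.

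Pembrolizumab with tiragolumab gave the lowest member values of T2215. Isg15 had 57.1, 46.1 and 75.4 FPKM with this pair, against 206, 95.9 and 72.6 FPKM with vehicle, and 1 treated tumour lay above the lowest vehicle tumour (−0.95 ± 0.49; limma, adjusted p = 1). Irf7, the factor that drives interferon alpha genes, had 54.3, 38.8 and 66.4 FPKM against 197, 96.8 and 74.5 FPKM with vehicle, without overlap (−1.11 ± 0.47; limma, adjusted p = 1). Bst2, which holds budding viruses at the cell surface, had 296, 232 and 358 FPKM against 794, 410 and 464 FPKM with vehicle, also without overlap (−0.87 ± 0.46; limma, adjusted p = 1). All 3 members were lower in the mean, and none passed.

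Stat2 had 10.3, 8.12 and 20.4 FPKM with the pair against 39.2, 20.7 and 20.3 FPKM with vehicle (−1.06 ± 0.42; limma, adjusted p = 1), with 1 tumour of the pair just above the lowest vehicle tumour. Ifit1 had 7.31, 4.86 and 10.6 FPKM against 27.2, 10.1 and 9.45 FPKM with vehicle, and Ifi27l2a had 243, 213 and 350 FPKM against 788, 365 and 346 FPKM. These overlapped by 1 tumour each. Mx1 had 3.70, 2.19 and 6.13 FPKM against 15.2, 4.36 and 3.69 FPKM, and Rsad2 had 5.19, 3.95 and 9.15 FPKM against 11, 5.42 and 4.10 FPKM; their differences of −0.70 and −0.12 were the smallest of the 8 core members. Ly6e had 1285, 1389 and 1249 FPKM with the pair against 2557, 1591 and 1970 FPKM with vehicle, without overlap. Ifi27 alone was above 0, at 91.5, 92.9 and 113 FPKM against 75.4, 94.0 and 107 FPKM (0.11).

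Over the 42 members 0 were called (limma) and 25 (59.5%) had an unadjusted p under 0.05, all of them lower; 0.0134% of all genes were called, 4.39% had such a p and 3.71% had it and were lower. The median was −0.82, with a range from −1.94 to 0.11, against −0.03 over all genes, of which 43.1% were above 0. The lowest was Zbp1, at 45.1 ± 28.9 FPKM with the pair and 162.2 ± 73.1 FPKM with vehicle (SD, n = 3 each); it is named for being the extreme. All 8 roles had a median below 0: −1.06 for the transcription factors, −0.99 for ISG15 and its conjugation, −0.95 for the PARP group, −0.91 for the IFIT proteins, −0.83 for the oligoadenylate synthetases, −0.76 for the antiviral effectors, −0.71 for Ifi27 and the genes grouped with it and −0.60 for the RNA sensors. The size rested on 1 vehicle tumour and on 1 tumour of the pair: without the first vehicle tumour the median was −0.46 with 0 members at an unadjusted p under 0.05, and without the second tumour of the pair it was −0.62 with 1. Without the first tumour of the pair the median was −0.78 with 10 such members.

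T cell markers were at low levels in the same tumours. The summed level of the 8 T cell markers was 7.15, 5.81 and 17.1 FPKM with pembrolizumab and tiragolumab, against 64.4, 18.1 and 46.0 FPKM with vehicle. Of the 8 markers 7, 3 and 8 reached 0.5 FPKM in the tumours of the pair, and all 8 did in each vehicle tumour. None of the 8 was called (limma), 3 had an unadjusted p under 0.05 and their median was −1.82. Their part in the members' values was not tested.

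Serplulimab with HLX53 against pembrolizumab with tiragolumab showed the same tumours from the other side. All 42 members had a value above 0, with a median of 0.87 and a range from 0.06 to 1.94, against −0.02 over all genes. By limma 0 were called and 24 (57.1%) had an unadjusted p under 0.05, all higher; 0.0134% of all genes were called, 21.3% had such a p and 11.6% had it and were higher. Isg15 had 198, 67.5 and 114 FPKM with serplulimab and HLX53, against 57.1, 46.1 and 75.4 FPKM with pembrolizumab and tiragolumab (0.98 ± 0.49; limma, adjusted p = 0.243). Stat2 had 32, 28.4 and 23.3 FPKM against 10.3, 8.12 and 20.4 FPKM, without overlap (1.17 ± 0.42; limma, adjusted p = 0.222). Irf7 had 193, 86.6 and 98.8 FPKM against 54.3, 38.8 and 66.4 FPKM, without overlap (1.18 ± 0.47; limma, adjusted p = 0.222). The 8 T cell markers summed to 59.2, 95.3 and 24.9 FPKM with serplulimab and HLX53, all 8 had an unadjusted p under 0.05 and their median was 2.17; their part was not tested. Without the second tumour given pembrolizumab with tiragolumab the members' median was 0.65, with 2 at an unadjusted p under 0.05. Without the first tumour of either pair 10 members had such a p, and the medians were 0.63 without that of serplulimab with HLX53 and 0.85 without that of pembrolizumab with tiragolumab.

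Pooled by antibody, the T2215 groups gave the following. Any PD-1 antibody against none gave 0 called members (limma) and 1 with an unadjusted p under 0.05, against 0% and 7.28% of all genes, and a median of −0.02. Any TIGIT antibody against none gave 0 called members (limma), 0 with an unadjusted p under 0.05 (0.0134% and 6.62% of all genes) and a median of −0.07. Without the first vehicle tumour these medians were 0.08 for PD-1 and 0.05 for TIGIT antibodies. The 3 groups with serplulimab against the 3 with pembrolizumab gave 0 called members (limma) and 2 with an unadjusted p under 0.05, both higher, against 0% and 9.51% of all genes, and a median of 0.12. Ifi27l2a was 1 of the 2 (0.64 ± 0.26; limma, adjusted p = 0.504); with serplulimab alone it had 1107, 268 and 1033 FPKM. Against vehicle, the members' medians were −0.23 with serplulimab alone and −0.11 with pembrolizumab alone. Beside HLX53 they were 0.05 and 0.23, and beside tiragolumab −0.05 and −0.82. Only beside tiragolumab was the median of the serplulimab group the higher.

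The 3 groups with HLX53 against the 3 with tiragolumab gave 0 called members (limma) and 12 (28.6%) with an unadjusted p under 0.05, all higher; 0% of all genes were called, 26.6% had such a p and 11.1% had it and were higher. The median was 0.40, with 40 of 42 above 0, against −0.03 over all genes. Against vehicle, the members' medians were −0.23 with HLX53 alone and −0.20 with tiragolumab alone. Beside serplulimab they were 0.05 and −0.05, and beside pembrolizumab 0.23 and −0.82. The HLX53 and tiragolumab groups thus lay widest apart beside pembrolizumab. Ifi27 averaged 127.7 ± 24.2 FPKM with HLX53 and 96.1 ± 9.58 FPKM with tiragolumab (SD, n = 9 each; 0.39 ± 0.11; limma, adjusted p = 0.155). Stat2 (0.61 ± 0.24; limma, adjusted p = 0.156), Irf7 (0.55; adjusted p = 0.195) and Isg15 (0.38; adjusted p = 0.356) pointed the same way without passing. All 8 T cell markers had an unadjusted p under 0.05 here too, with a median of 1.25. The count of 12 was 3 without tumour 3 of serplulimab with tiragolumab and 23 without tumour 2 of tiragolumab, the ends of the range over the 18 tumours left out in turn. It was 5 once adipocyte marker level was taken into the fit.

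Of the 4 treatments given in both experiments, the pair of serplulimab and HLX53 left most members on the same side of vehicle in both, and the other 3 did not. Under pembrolizumab with tiragolumab 34 of 42 members lay above vehicle in T2106 and below it in T2215, and 0 the reverse. Over all genes tested 39.1% lay above vehicle under that pair in T2106 and 43.1% in T2215. For 5 members under that pair (11.9%) the tumours separated from vehicle without overlap in both experiments, in opposite directions, against 0.957% of the 14629 genes tested in both; all 5 were higher in T2106 and lower in T2215, as were 0.67% of these genes. Under serplulimab the count of members above vehicle in T2106 and below it in T2215 was 34, and under HLX53 it was 25. Under serplulimab with HLX53 at 10 mg/kg 21 lay above vehicle in both experiments, 11 below it in both, 7 above it in T2106 and below it in T2215, and 3 the reverse. The comparisons within 1 experiment share its 3 vehicle tumours, and the experiments were not fitted together, so the difference between them was not tested. The medians behind these counts moved with single vehicle tumours, as given above. No share over all genes is given for the counts by side of vehicle in both experiments, so whether members differ from other genes there is open.

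The genes upstream of the members were measured too, from lists of the pathway. The 19 interferon ligand genes, Ifnb1 and the interferon alpha genes among them, never reached the minimum for testing. Ifnb1, the gene of interferon beta, was under 0.5 FPKM in every tumour of both experiments, at 0.0373, 0.0342 and 0.0863 FPKM with serplulimab and HLX53 at 10 mg/kg in T2106, against 0.256, 0.0422 and 0.157 FPKM with vehicle.

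Of 6 receptor and proximal signalling genes tested, 5 rose under serplulimab with HLX53 at 10 mg/kg in T2106, with a list median of 0.92, where 23.4% of all genes tested were called higher and 44% in either direction. Ifnar2 and Ifnar1, the chains of the receptor, rose by 1.02 (limma, adjusted p = 0.0162) and 0.73 (adjusted p = 0.0412), and the kinase Jak1 rose by 1.06 (adjusted p = 0.0201). Stat3, which also serves interleukin receptors, rose by 0.81 (limma, adjusted p = 0.0155) and Il10rb, a chain shared by the receptors of interleukin 10 and interferon lambda, by 1.26 (adjusted p = 0.0193). Against pembrolizumab with tiragolumab 4 of the 6 were called higher, where 25.8% of all genes tested were. Ifnar2 (1.17) and Ifnar1 (0.88) were among the 4. Of 16 nucleic acid sensing genes 6 rose and 2 fell against vehicle, a share close to that of all genes. Irf5, a transcription factor below the Toll-like receptors, rose by 1.60, and Mavs, the adaptor of RIG-I, fell by 0.71 on the log2 scale (limma, adjusted p = 0.013).

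Of 9 negative regulators 2 rose and 2 fell under serplulimab with HLX53 at 10 mg/kg, again close to the 44% of all genes. Ptpn6, a phosphatase of blood cells, rose by 1.38 and Pias3, an inhibitor of STAT3, fell by 0.68 on the log2 scale (limma, adjusted p = 0.00811). Of 18 genes of interferon gamma and its targets 7 rose and none fell, with a list median of 0.63, against 23.4% of all genes called higher. Ifng, the gene of interferon gamma, had 9.13, 3.07 and 7.53 FPKM against 1.84, 0.917 and 2.16 FPKM with vehicle, without overlap, and rose by 1.66 ± 0.36 (limma, adjusted p = 0.0101). Cd274, the gene of the PD-1 ligand PD-L1, rose by 1.90 (limma, adjusted p = 0.0126), and Nos2, the inducible nitric oxide synthase, by 3.19 (adjusted p = 0.0073). Cxcl10, a chemokine that both types of interferon raise, had a difference of 0.31 and did not pass (limma, adjusted p = 0.376). With the adipocyte score as a covariate no gene of these 4 lists was called, and the medians were 0.12 for receptors and signalling, −0.01 for sensing, 0.17 for negative regulators and 0.39 for interferon gamma. As given above, a fit with that score separates it poorly from treatment. Without the first treated tumour the interferon gamma genes called were 1, without treated tumour 3 they were 2, and none of the receptor or sensing genes was called without either. The receptor genes called were 1 without the first or the second vehicle tumour. Markers of adipocytes, macrophages and other cells were higher in the same tumours, as given above, and their part was not tested. At the lower dose of HLX53 Nos2 rose by 3.51 (limma, adjusted p = 0.0193) and Socs1, an inhibitor of JAK kinases, by 0.75 (adjusted p = 0.046), and Pias3 fell by 0.70 on the log2 scale (adjusted p = 0.0315). In that comparison 1.02% of all genes were called. Of the neutrophil markers 3 of 6 were called higher at the lower dose (median 3.06), and none of the macrophage, T cell or adipocyte markers was; their part was not tested.

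In T2215 no gene of these lists was called in any comparison. Under pembrolizumab with tiragolumab 10 of the 18 interferon gamma genes had an unadjusted p under 0.05, against 4.39% of all genes, and the list median was −1.53. Without the first vehicle tumour 5 had such a p and the median was −1.31, without the first tumour of the pair 5 and −1.35, and without its second tumour 2 and −1.14. Ifng had 0.317, 0.0456 and 1.68 FPKM with the pair against 3.35, 1.99 and 1.92 FPKM with vehicle, without overlap (−1.52 ± 0.84; limma, adjusted p = 1). Cxcl10 differed by −1.36 and Ifnar1 by 0.06 (limma, adjusted p = 1 for both). In T2106 the same pair gave differences of 0.49 for Ifng and 0.40 for Cxcl10, neither of which passed.

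Across tumours, Isg15 was set against 5 genes in each experiment, which makes 10 relations with p-values from 100000 permutations, 2-sided, adjusted over the 10. In the 27 tumours of T2215 Isg15 followed Ifng (r = 0.86, rho = 0.879, both permutation p = 1e-05, the smallest they can give, adjusted p = 0.0001). Without the 2 tumours farthest from the median of Ifng, r was 0.889, and on deviations from group means it was 0.863. Cd8a, a gene of cytotoxic T cells, gave r = 0.659 and rho = 0.629 (permutation p = 0.0003, adjusted p = 0.0015), r = 0.735 without the 2 farthest tumours and 0.682 on deviations from group means. Ptprc, expressed by all white blood cells, gave r = 0.566 and rho = 0.642 (permutation p = 0.00218, adjusted p = 0.00727), r = 0.818 without the 2 farthest tumours and 0.56 on deviations from group means, where it no longer passed (permutation, adjusted p = 0.0551). The macrophage gene Adgre1 gave r = 0.391 and rho = 0.476 (permutation p = 0.0443 for r, adjusted p = 0.111, and 0.0131 for rho, adjusted p = 0.0328), so that it passed by rho and not by r. It gave r = 0.632 without the 2 farthest tumours (permutation, adjusted p = 0.00217) and 0.342 on deviations from group means (adjusted p = 0.151). Mki67, a gene of dividing cells, gave r = −0.31 and rho = −0.27 (permutation p = 0.118, adjusted p = 0.197).

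In the 18 tumours of T2106 none of these 5 relations passed. Ifng gave r = 0.424 and rho = 0.263 (permutation p = 0.079, adjusted p = 0.158), −0.05 without the 2 farthest tumours and 0.714 on deviations from group means (adjusted p = 0.0293). Cd8a gave r = 0.0303 (permutation p = 0.903), Ptprc 0.248 (p = 0.32), Adgre1 0.144 (p = 0.567) and Mki67 −0.353 (p = 0.153), all by permutation. On deviations from group means rho passed for Cd8a (0.585; permutation, adjusted p = 0.0468) and Mki67 (−0.686; adjusted p = 0.0291), while r did not. Each point is 1 bulk tumour, so its cell makeup enters both genes of a relation.

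**Figure D4:**
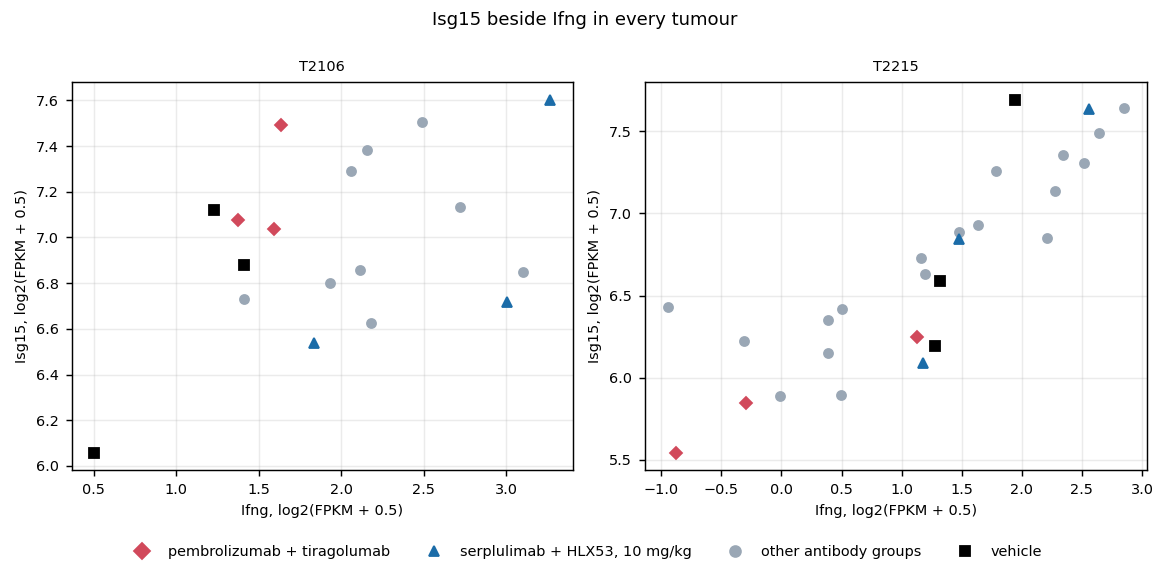
Isg15 (vertical axis) against Ifng (horizontal axis), both as log2(FPKM + 0.5), with 1 point per tumour, in T2106 (left, 18 tumours) and T2215 (right, 27 tumours); red diamonds are pembrolizumab with tiragolumab, blue triangles serplulimab with HLX53 at 10 mg/kg, grey circles the other antibody groups and black squares vehicle. The points of T2215 rise together (r = 0.86), and those of T2106 scatter more.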

How the data were processed

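Total RNA of 45 CT26 tumours in 15 groups was sequenced as paired reads of 150 bases on an MGISEQ-2000RS, per the labels' protocols. STAR, Bowtie, Trimmomatic and FastQC and the builds mm10, hg19 and GRCh37 are named, without roles, per the submitters' processing notes. No label names the program that computed the expression values. The authors deposited log2 FPKM. No value is an exact 0, the lowest log2 values lie between −26.83 and −24.21, and read depth is unknown, so no counting error can be given.

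Values were turned into FPKM, and genes with at least 0.5 FPKM in 3 or more libraries of an experiment were kept (15070 and 14914 of 47729). limma 3.58.1 in R 4.3.3 was fitted to log2(FPKM + 0.5) with all groups of an experiment in 1 fit and a trend in the variance, in 20 comparisons, 7 in T2106 and 13 in T2215. P-values were adjusted over all genes tested. The script was tested on simulated data. Replicates within a group correlated at 0.829 to 0.992. The members, lists and tests were chosen with earlier results of these data known. Values in every tumour are given for 8 core members and for the other members called against vehicle. Of the upstream genes called some are named and others are only counted, with at most 4 named per list beside Ifnb1, Ifnar1, Ifng and Cxcl10, which are always named. A further gene of the pathway is not reported here. Coordinates are those of GENCODE M21 (GRCm38); 30 of 42 members matched RefSeq's promoter table.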

Additional observations from a re-analysis of the deposited data

Results flagged for a closer look

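Under pembrolizumab with tiragolumab 5 members separated from vehicle without overlap in both experiments, but in opposite directions: every tumour of the pair lay above every vehicle tumour in T2106 and below every vehicle tumour in T2215. These are 11.9% of the members, and 0.67% of the 14629 genes tested in both experiments separated in this way, 0.957% in opposite directions of either kind. The log2 differences were 0.47 in T2106 and −1.11 in T2215 for Herc6, 0.50 and −0.87 for Bst2, 0.59 and −1.94 for Zbp1, 0.40 and −1.02 for Parp9, and 0.35 and −0.86 for Phf11d. None of these passed limma's test in either experiment, and the difference between the experiments was not tested. The summed T cell markers under the pair were 11.1, 6.11 and 9.21 FPKM in T2106, against 39.7, 32.6 and 41.9 FPKM with vehicle, and 7.15, 5.81 and 17.1 FPKM in T2215, against 64.4, 18.1 and 46.0 FPKM with vehicle, so they were low in both experiments. Their part was not tested.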

How the results depend on the processing

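The calls of members rested on few tumours. Against vehicle in T2106, of the 3 members called under serplulimab with 10 mg/kg HLX53, 1 was called with no filter, 0 with the adipocyte score as a covariate and 5 with only the libraries compared; leaving out 1 tumour gave 0 to 10, with 0 without the second vehicle tumour or without treated tumour 1 or 3. Against pembrolizumab with tiragolumab the 3 became 1 with no filter, 0 with the covariate and 10 with only the libraries compared, and 1 to 3 on leaving out 1 tumour. Over all genes tested, leaving out 1 tumour gave 351 to 7345 calls against vehicle and 1538 to 7250 against that pair. The lower dose against vehicle went to 0 to 4 members, the dose comparison to 0 to 4 and serplulimab in T2215 to 0 to 1 on leaving out 1 tumour. With the covariate Epsti1 was −0.0935, Ifi27 0.667 and Ly6e −0.372 against vehicle, and against the other pair Oas1g was 0.17, Lgals3bp −0.0711 and Epsti1 −0.0134; the cause was not tested. Ifi27 stayed at 0.51 to 0.80, Ly6e at −0.73 to −0.52 and Epsti1 at 0.93 to 1.61 on leaving out 1 tumour. The relation of Isg15 with Ifng in T2106 was 0.714 on deviations from group means and −0.0491 without the 2 farthest tumours, that with Adgre1 in T2215 was 0.632 without them, and that with Ptprc in T2215 was 0.56 on deviations from group means; the cause was not tested. The upstream gene lists were run again without each tumour and with the covariate, a choice made after seeing the data. The comparisons of any PD-1 and any TIGIT antibody use all groups, so the alternative of only the libraries compared was not run there.

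Replicate numbers did not pair tumours: deviations of same-numbered tumours correlated at a median of −0.03 in T2106 and −0.04 in T2215. With the replicate number as a block, 21 rather than 25 members had an unadjusted p under 0.05 under pembrolizumab with tiragolumab in T2215. Read depth, which sets the precision of low genes, is unknown.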
